A study of Homo sapiens with 8 samples.

Results

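The genes of membrane fusion, endosomal sorting and vesicle coats were followed by gene symbol: syntaxins (STX), VAMPs, SNAPs, vacuolar protein sorting genes (VPS), sorting nexins (SNX), coatomer subunits (COPA to COPZ), SEC13, SEC22, SEC23, SEC24 and SEC31, and subunits of the adaptor complexes AP1 to AP4. Of the 9535 genes measured, 108 bore such a symbol, with 139 of the 14479 probes. They comprised 23 SNARE genes, 29 VPS genes, 21 sorting nexins, 7 COPI genes, 9 COPII genes, 16 adaptor genes and 3 non-coding genes. The SNAPC and COPS families, which share only letters with the rest, and 3 measured VPS13 genes, whose proteins move lipids between membranes, were left out. The symbol also took in genes of other roles. VPS72 encodes a histone chaperone. SNAP91, counted here with the SNARE genes, encodes the clathrin assembly protein AP180, and SEC22B is a SNARE that was counted here with the COPII genes.

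SNAREs are small membrane proteins that zip together across 2 membranes and so drive their fusion, with syntaxins and SNAP proteins giving the Q-type helices and VAMPs the R-type helix. Coats do the opposite work, in that COPII buds vesicles from the endoplasmic reticulum, COPI carries cargo back from the Golgi, and adaptor complexes select cargo for clathrin-coated and related vesicles. In endosomes, retromer and many sorting nexins retrieve cargo, ESCRT complexes sort it inwards for degradation, and the HOPS and CORVET tethers hold membranes together before fusion.

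The cells were HEK293T, a widely used line of embryonic kidney origin, and all of them, inputs included, had received 200 pmol of a biotin-tagged synthetic duplex of either miR-23b or miR-27a and were collected 24 h later. RNA held with the duplex was recovered on streptavidin beads (pull-down) and compared with RNA of the same transfection (input), on single-colour Illumina bead arrays. There were 4 groups of 2 arrays, miR-23b pull-down, miR-23b input, miR-27a pull-down and miR-27a input. The question was which mRNAs accompany each miRNA. No control duplex without a target was analysed here. As the labels do not say whether replicates were separate cultures, the spread between the 2 arrays of a group may be technical. The p-values rest on that spread, pooled over the 4 groups and moderated across probes.

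The baits are shown because everything below is measured relative to them. The labels do not name the arm, and the 3p arms, by which these miRNAs usually go, are printed from RefSeq (GRCh38.p14) with the seed, bases 2 to 8 from the 5′ end, in capitals.
hsa-miR-23b-3p: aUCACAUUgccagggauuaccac
hsa-miR-27a-3p: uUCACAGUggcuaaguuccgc
The first is encoded at chr9:95085265-95085287 on the plus strand in the MIR23B hairpin and the second at chr19:13836447-13836467 on the minus strand in the MIR27A hairpin. Their seeds share 6 of 7 bases and differ by U7G, with the miR-23b base first and positions counted from the 5′ end.

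Deposited values were on a log2 scale and lay between 7.18 and 15.2, with array medians of 9.09 to 9.12. A change is therefore relative to the other probes of the array, and a fold is called apparent because the transformation behind the log scale is not given in the sources used here. Of the 8 HEK293T markers listed, 7 were measured. On the inputs VIM lay at 12.7 to 13.4 and LIN28B at 11.7 to 12.0, while KRT8, NEFL, NEFM and INA lay between 8.90 and 9.54 and KRT18 at 7.75 to 8.35. Of 10 markers of other cell types, 3 were measured, CD68 at 8.25 to 9.07, ALB at 7.91 to 8.57 and COL1A1 at 7.53 to 7.81. In bulk RNA, fewer cells of a type and less RNA per cell cannot be told apart. The inputs of the miRNAs did not separate the trafficking genes, since 0 of 108 differed between them by limma, 0 at an unadjusted p under 0.05 and 0 in a fit blocked on the replicate number.

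The 108 genes moved in both directions in both pull-downs, at rates close to those of all genes. In the miR-23b pull-down 11 genes were higher than in its input and 10 were lower at an adjusted p under 0.05 in limma, that is 10.2% and 9.26% of the 108 beside 13.4% and 10.9% of all 9535 genes. In the miR-27a pull-down 21 were higher and 16 lower, 19.4% and 14.8% beside 18.5% and 16.1% of all genes. Their median log2 change was 0.13 with miR-23b and 0.08 with miR-27a, where the medians of all genes were 0.02 and -0.04. The trafficking genes as a whole thus did not stand out by count, and what follows concerns which of them moved.

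Same-numbered arrays shifted together, and a fit with the replicate number as a block made more calls. It called 31 higher and 18 lower with miR-23b, where 24.5% and 20.2% of all genes were called, and 34 higher and 25 lower with miR-27a, where 26.4% and 27.0% of all genes were called. All 21 calls of the miR-23b comparison and all 37 of the miR-27a comparison were also made with the block. The change within pair 1 and that within pair 2 had the same sign in 89 of 108 genes with miR-23b and in 90 of 108 with miR-27a.

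**Figure D1:**
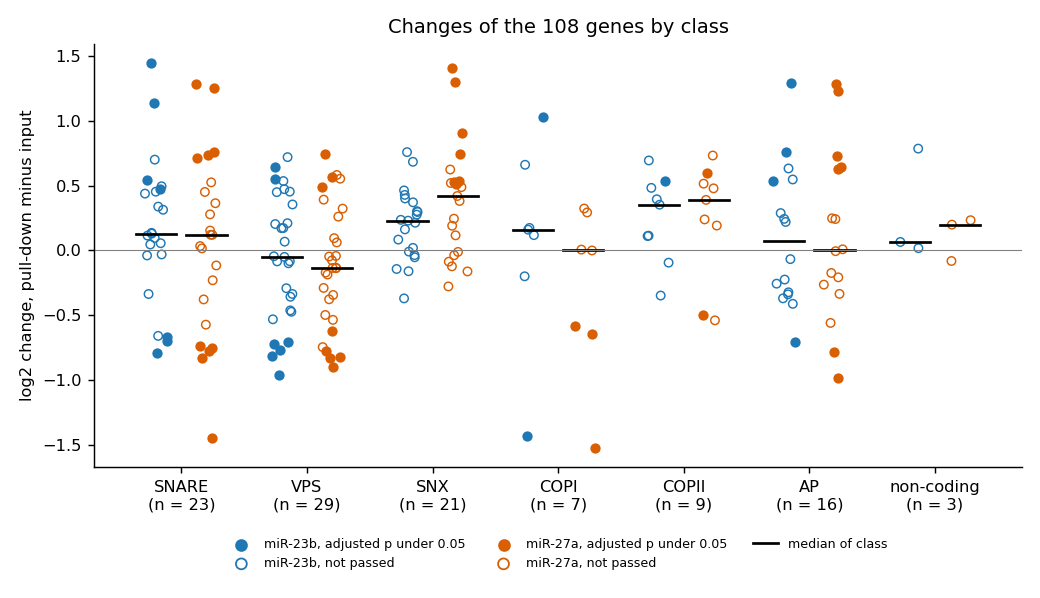
Log2 change of each of the 108 genes, pull-down minus input, by class on the horizontal axis, with 1 circle a gene, filled where the adjusted p was under 0.05, and a bar at the median of the class. The SNX genes have their median at 0.23 with miR-23b and 0.42 with miR-27a, 7 filled circles with miR-27a and 0 with miR-23b, whereas filled circles of SNARE, VPS and AP genes lie on both sides of 0.

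A total of 45 genes passed in at least 1 pull-down. Of these, 5 were higher in both, namely VAMP3, VPS41, SEC23IP, AP1G1 and AP2B1. A further 7 were lower in both, namely SNAP47, VAMP1, VPS29, VPS51, VPS72, COPE and AP2M1. STX5 alone was higher in one, with miR-23b, and lower in the other. The remaining 32 passed in only 1 pull-down, which does not show that the pull-downs differed there. The test of that difference is given further on. Calls shared by both pull-downs were not counted over all genes. Whether such sharing was particular to the trafficking genes was therefore not tested.

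The SNARE VAMP2 held the largest rise of the 108 genes in the miR-23b pull-down, and of the 4 SNAREs that rose there VAMP3 alone also passed as higher with miR-27a. With miR-23b, VAMP2, SNAP29, STX5 and VAMP3 were higher and SNAP47, VAMP1 and VAMP8 lower. With miR-27a, STX2, VAMP3, VAMP7, STX12 and STX16 were higher and STX8, STX5, STX10, VAMP1 and SNAP47 lower. The counts were 4 higher and 3 lower of 23 with miR-23b, median 0.13, and 5 higher and 5 lower with miR-27a, median 0.12. These are 17.4% and 13.0%, then 21.7% and 21.7%, beside 13.4% and 10.9%, then 18.5% and 16.1% of all genes. With the block, 8 were higher and 4 lower with miR-23b, and 7 and 6 with miR-27a. That is 34.8% and 17.4%, then 30.4% and 26.1%, beside 24.5% and 20.2%, then 26.4% and 27.0% of all genes.

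VAMP2, the synaptobrevin of regulated exocytosis, read 9.47 and 9.56 on the miR-23b inputs, 10.99 and 10.93 on the miR-23b pull-downs, 9.42 and 9.42 on the miR-27a inputs and 9.35 and 9.55 on the miR-27a pull-downs. Only the miR-23b pull-down arrays were high, by 1.44 ± 0.13 (SE) on the log2 scale, an apparent 2.72-fold (adjusted p = 0.0019), and the change with miR-27a was 0.03 ± 0.13 (adjusted p = 0.86). SNAP29, a Q-SNARE of autophagosomes and endosomes, had the same pattern. It read 9.83 and 9.57 on the miR-23b inputs, 10.94 and 10.73 on the pull-downs of miR-23b, 9.74 and 9.39 on the miR-27a inputs and 9.57 and 9.34 on the miR-27a pull-downs. Its change was 1.13 ± 0.18 with miR-23b (adjusted p = 0.0056) and -0.12 ± 0.18 with miR-27a (adjusted p = 0.65).

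STX5, the Q-SNARE of the Golgi and of fusion between endoplasmic reticulum and Golgi, read 10.99 and 11.15 on the miR-23b inputs, 11.61 and 11.61 on the miR-23b pull-downs, 10.98 and 11.05 on the miR-27a inputs and 10.30 and 10.08 on the miR-27a pull-downs. Inputs lay between the pull-downs, and no groups of pull-down and input overlapped. The change was 0.54 ± 0.14 with miR-23b (adjusted p = 0.027) and -0.82 ± 0.14 with miR-27a (adjusted p = 0.0040). Its other 2 probes had the same signs, with 0.32 and 0.31 for miR-23b, neither of which passed, and -0.19 and -0.78 for miR-27a, of which the latter passed. The miR-23b call was lost without any 1 of the 4 miR-23b arrays, with an adjusted p of up to 0.12.

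VAMP3 and VAMP8, R-SNAREs of recycling and late endosomes, differed from each other. VAMP3 read 11.89 and 11.75 on the miR-23b inputs, 12.39 and 12.20 on their pull-downs, 11.77 and 11.60 on the miR-27a inputs and 13.00 and 12.87 on their pull-downs. It was thus higher with both miRNAs, by 0.47 ± 0.14 (adjusted p = 0.046) and 1.25 ± 0.14 (adjusted p = 0.0013, an apparent 2.38-fold). VAMP8 read 9.74 and 9.60, then 8.89 and 9.11 for miR-23b input and pull-down, and 9.80 and 9.47, then 10.15 and 10.03 for miR-27a. It was lower with miR-23b (-0.67 ± 0.16, adjusted p = 0.022), and its value with miR-27a was 0.45 ± 0.16 (adjusted p = 0.065, with the block 0.023). VAMP1, a close relative of VAMP2, was lower with both (-0.70 and -0.75). Its dimmer probe passed with neither (-0.17 and -0.38, adjusted p = 0.43 and 0.084). VAMP7, the longin-type VAMP of late endosomes and lysosomes, was higher with miR-27a (0.76 ± 0.21, adjusted p = 0.027).

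The largest fall among SNAREs was that of STX8, a Q-SNARE of late endosomes. It read 9.55 and 9.80 on the miR-23b inputs, 9.50 and 9.79 on the miR-23b pull-downs, 9.36 and 9.86 on the miR-27a inputs and 8.06 and 8.27 on the miR-27a pull-downs. The change was -1.44 ± 0.21 with miR-27a (adjusted p = 0.0023) and -0.03 ± 0.21 with miR-23b (adjusted p = 0.93). STX10, of the trans-Golgi network, was likewise lower with miR-27a (-0.78 ± 0.19, adjusted p = 0.015) and at 0.10 with miR-23b (adjusted p = 0.74). SNAP47 was lower with both, reading 9.97 and 9.88 on the miR-23b inputs against 9.17 and 9.11, and 10.01 and 9.92 on the miR-27a inputs against 9.30 and 9.17 (changes -0.79 ± 0.13 and -0.73 ± 0.13).

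**Figure D2:**
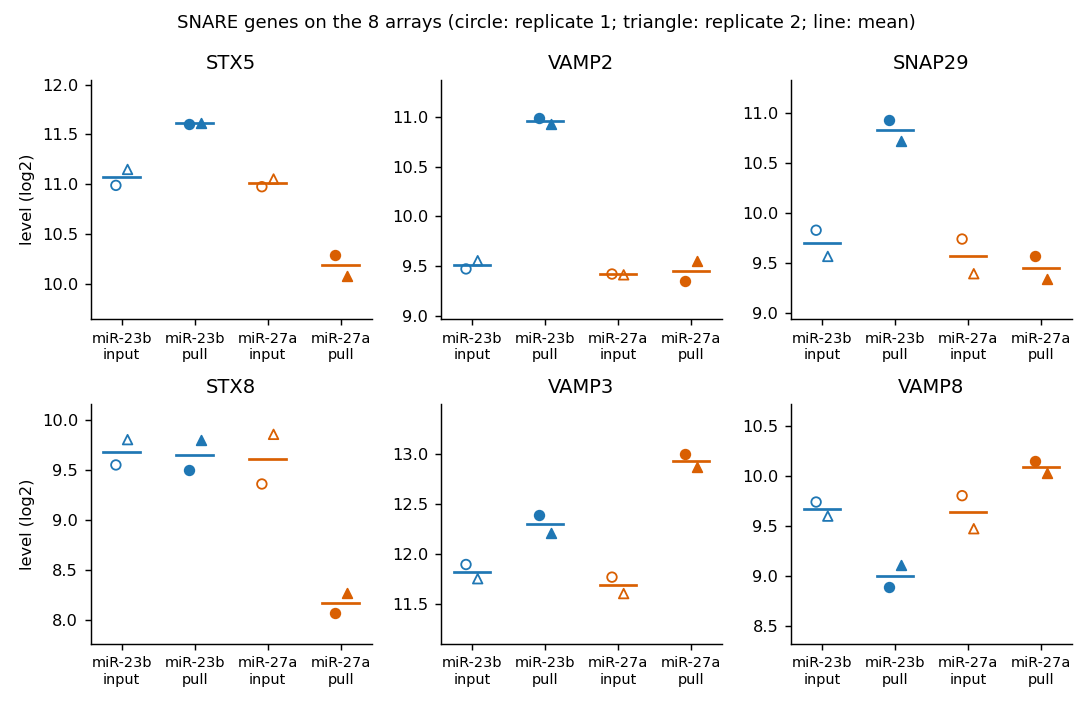
Level (log2) of 6 SNARE genes on each of the 8 arrays, by group on the horizontal axis, with inputs as open and pull-downs as filled symbols, replicate 1 as circles, replicate 2 as triangles and a line at the mean of the group. VAMP2 and SNAP29 are high on the miR-23b pull-downs alone, STX8 is low on the miR-27a pull-downs alone, and STX5 is above its input with miR-23b and below it with miR-27a.

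STX2, a syntaxin of the plasma membrane, rose with miR-27a by 1.28 ± 0.28 (adjusted p = 0.010), from 10.39 and 10.08 to 11.77 and 11.27. With miR-23b it went from 10.41 and 9.84 to 11.12 and 10.53, which was 0.70 ± 0.28 and passed only with the block (adjusted p = 0.10, with the block 0.0015). A second probe of STX2 had 0.76 with miR-23b (adjusted p = 0.088) and was higher with miR-27a (0.86 ± 0.28, adjusted p = 0.047). Its dimmest probe passed with neither (-0.13 and 0.14). STX16 of the trans-Golgi network (0.71 ± 0.16) and STX12 of recycling endosomes (0.74 ± 0.24) were also higher with miR-27a. STX16 is named to complete the count, after its value was seen.

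Partners in known SNARE complexes were called in part and not always in the same direction. Of the late endosomal complex of STX7, STX8, VTI1B and VAMP8, STX7 had -0.66 with miR-23b and -0.57 with miR-27a (adjusted p = 0.059 and 0.073, with the block 0.0042 and 0.0065), and VTI1B had -0.76 and -0.87 (adjusted p = 0.087 and 0.045, with the block 0.0035 and 0.0012). With the block, STX7 and VTI1B were thus lower in both pull-downs. STX8 was lower with miR-27a alone and VAMP8 with miR-23b alone. Of the autophagosomal complex of STX17, SNAP29 and VAMP8, STX17 had 0.05 and 0.36 and did not pass. Of the partners of STX5, GOSR2 was lower with both miRNAs (-0.81 ± 0.17 and -1.22 ± 0.17) and BET1 was higher with both (0.57 and 0.62). BET1L was higher with miR-23b (0.90 ± 0.13, adjusted p = 0.0045) and at -0.05 with miR-27a (adjusted p = 0.78). GOSR1 passed with neither (0.06 and 0.48, adjusted p = 0.85 and 0.11).

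With any single array left out, SNAP29, SNAP47 and VAMP2 kept their miR-23b calls and SNAP47, STX5, STX8, VAMP1 and VAMP3 their miR-27a calls. The other 4 and 5 calls were lost without at least 1 array of that miRNA, and that of VAMP3 with miR-23b also without a miR-27a array, with highest adjusted p of 0.069 to 0.20 and of 0.067 to 0.23.

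Sorting nexins, which bind endosomal phosphoinositides through a PX domain, had rises and no falls past the threshold with miR-27a. There, 7 of 21 (33.3%) were higher and 0 lower, beside 18.5% and 16.1% of all genes. The median was 0.42, and 15 of 21 changes (71.4%) lay above 0, beside 46.6% of all genes. With miR-23b, 0 passed in either direction in limma, where 13.4% of all genes were higher and 10.9% lower. With miR-23b 4 of 21 had an unadjusted p under 0.05 in limma, beside 3620 of all 9535 genes. The median was 0.23, again with 15 of 21 above 0, beside 52.2% of all genes. With the block, 4 were higher (SNX4, SNX6, SNX10 and SNX27) and 1 lower (SNX17) with miR-23b, and 11 were higher and 0 lower with miR-27a. As 18.5% of all genes were higher with miR-27a, the 7 genes compare with a background that was itself high. With the block, 24.5% of all genes were higher and 20.2% lower with miR-23b, and 26.4% and 27.0% with miR-27a.

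SNX4, a BAR-domain nexin of recycling and autophagy, read 9.51 and 9.24 on the miR-23b inputs, 10.35 and 9.77 on the miR-23b pull-downs, 9.33 and 9.37 on the miR-27a inputs and 10.89 and 10.61 on the miR-27a pull-downs. Both pull-downs lay above their inputs, by 1.40 ± 0.21 with miR-27a (adjusted p = 0.0027, an apparent 2.65-fold) and by 0.68 ± 0.21 with miR-23b (adjusted p = 0.0504, with the block 0.0053). SNX10, a PX-only nexin linked to osteoclast vesicles and endosome shape, read 8.42 and 7.78, then 9.23 and 8.49 for miR-23b, and 8.31 and 7.92, then 9.51 and 9.32 for miR-27a. Its change with miR-27a was 1.30 ± 0.29 (adjusted p = 0.012), and its value with miR-23b was 0.76 ± 0.29 (adjusted p = 0.098, with the block 0.0029).

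SNX11, the closest relative of SNX10, read 10.33 and 10.16 on the miR-23b inputs, 10.35 and 10.31 on the miR-23b pull-downs, 10.06 and 9.71 on the miR-27a inputs and 10.95 and 10.63 on the miR-27a pull-downs. It was higher with miR-27a (0.90 ± 0.17, adjusted p = 0.0066), while the arrays of miR-23b overlapped (0.08 ± 0.17, adjusted p = 0.76). SNX7, the partner of SNX4 in sorting complexes, was higher with miR-27a by 0.75 ± 0.20 on its main probe and by 0.78 ± 0.24 on its other probe, and both passed. The other 3 that passed with miR-27a were SNX5 (0.54), SNX6 (0.53) and SNX27 (0.51), named to complete the count. SNX5 and SNX6 form the BAR-domain coat of retromer tubules, and SNX27 couples cargo to retromer.

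By domain, 4 of the 8 BAR-domain nexins (50.0%), SNX5 among them, and 3 of the other 13 (23.1%) were higher with miR-27a, beside 18.5% of all genes. The dimmer probe of SNX5 had -0.61 ± 0.28 with miR-27a and -0.81 ± 0.28 with miR-23b, neither of which passed, so the direction of SNX5 depended on the probe. SNX8 also had probes of opposite sign, its brighter one at 0.40 and 0.38 (not passed) and its dimmer one at -0.69 (adjusted p = 0.015) and -0.50 (adjusted p = 0.035). Without single arrays, SNX4 and SNX11 kept their calls, and the other 5 reached an adjusted p of 0.072 to 0.24, with SNX6 and SNX27 also lost without an array of miR-23b.

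VPS genes rose and fell in several complexes. With miR-23b 2 of 29 were higher and 5 lower (median -0.05), which is 6.9% and 17.2% beside 13.4% and 10.9% of all genes. With miR-27a 3 were higher and 5 lower (median -0.13), which is 10.3% and 17.2% beside 18.5% and 16.1%. The block gave 7 and 9 with miR-23b, 24.1% and 31.0% beside 24.5% and 20.2% of all genes, and 6 and 10 with miR-27a, 20.7% and 34.5% beside 26.4% and 27.0%. The falls shared by both pull-downs were VPS29, VPS51 and the histone chaperone VPS72, and the rise shared by both was VPS41.

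Retromer, the trimer of VPS35, VPS29 and a VPS26 protein, did not move as a unit. VPS29 read 11.11 and 11.54 on the miR-23b inputs, 10.54 and 10.49 on the miR-23b pull-downs, 11.24 and 11.53 on the miR-27a inputs and 10.48 and 10.64 on the miR-27a pull-downs, and was lower with both (-0.81 ± 0.18 and -0.82 ± 0.18, adjusted p = 0.017 and 0.011). The scaffold VPS35 had -0.10 ± 0.21 and 0.26 ± 0.21 and did not pass. VPS26A was higher with miR-27a (0.57 ± 0.15, adjusted p = 0.022) and VPS26B lower with miR-23b (-0.71 ± 0.22, adjusted p = 0.0497). These alternative subunits thus had opposite signs in each pull-down, as VPS26A had 0.35 with miR-23b (adjusted p = 0.13) and VPS26B -0.53 with miR-27a (adjusted p = 0.095, with the block 0.0060).

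VPS28, an ESCRT-I subunit, read 10.86 and 10.63 on the miR-23b inputs, 9.68 and 9.89 on the miR-23b pull-downs, 11.09 and 10.65 on the miR-27a inputs and 10.74 and 10.66 on the miR-27a pull-downs. It was the largest VPS fall with miR-23b (-0.96 ± 0.18, adjusted p = 0.0097), its second probe gave -1.02 ± 0.21, and with miR-27a the main probe was at -0.17 (adjusted p = 0.50). Other ESCRT genes moved with miR-27a. VPS25 of ESCRT-II was lower (-0.82 ± 0.21, adjusted p = 0.021). With miR-23b its main probe did not pass (-0.46 ± 0.21, adjusted p = 0.15), but its second probe was lower (-0.68 ± 0.17, adjusted p = 0.026). With miR-27a VPS37D of ESCRT-I was lower (-0.62 ± 0.16, named to complete the count). There VPS4B, an ATPase that takes ESCRT-III apart, was higher (0.74 ± 0.15, adjusted p = 0.0071). Its paralogue VPS4A had -0.74 ± 0.28, which passed only with the block (adjusted p = 0.076, with the block 0.00064). Whether each probe separates such paralogues was not tested.

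Of the 7 measured HOPS and CORVET genes, the HOPS subunits VPS39 (0.55 ± 0.16, adjusted p = 0.040) and VPS41 (0.65 ± 0.16, adjusted p = 0.022) were higher with miR-23b. VPS41 was also higher with miR-27a (0.49 ± 0.16, adjusted p = 0.042), reading 10.13, 10.37, 10.16 and 10.28 on the 4 inputs, 10.79 and 11.01 on the miR-23b pull-downs and 10.62 and 10.80 on the miR-27a pull-downs. A second probe of VPS41 was higher with both (0.90 ± 0.19 and 1.14 ± 0.19), and its dimmest probe passed with neither (0.07 and 0.18). VPS51, which GARP and EARP share, was lower with both by like amounts (-0.77 ± 0.18 and -0.77 ± 0.18). VPS72 read 10.01 to 10.05 on the 4 inputs, 9.24 and 9.36 on the miR-23b pull-downs and 9.11 and 9.15 on the miR-27a pull-downs (-0.72 ± 0.12 and -0.90 ± 0.12). Without single arrays, VPS28 and VPS72 kept their miR-23b calls and VPS4B and VPS72 their miR-27a calls, while the other 5 and 6 calls reached adjusted p of 0.099 to 0.19 and 0.070 to 0.20, those of VPS26B and VPS39 also without a miR-27a array.

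Among coat genes, COPE, the epsilon subunit of coatomer, fell most with both miRNAs, and no other COPI gene was lower with both. COPE read 11.05 and 11.65 on the miR-23b inputs, 9.65 and 10.19 on the miR-23b pull-downs, 11.37 and 11.50 on the miR-27a inputs and 9.86 and 9.96 on the miR-27a pull-downs. Every pull-down array lay below every input array, by -1.43 ± 0.24 (adjusted p = 0.0065) and -1.52 ± 0.24 (adjusted p = 0.0031), apparent folds of 0.37 and 0.35. A second probe of COPE gave -1.38 ± 0.27 and -1.48 ± 0.27.

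The gamma subunits, which are alternatives in the coat, differed. COPG2 read 10.28 and 10.03 on the miR-23b inputs, 10.96 and 11.41 on the miR-23b pull-downs, 10.37 and 9.94 on the miR-27a inputs and 10.26 and 10.70 on the miR-27a pull-downs, and was higher with miR-23b (1.03 ± 0.23, adjusted p = 0.018) with overlapping arrays for miR-27a (0.32 ± 0.23, adjusted p = 0.32). COPG1 was lower with miR-27a (-0.58 ± 0.18, adjusted p = 0.040) and at 0.12 with miR-23b (adjusted p = 0.67). COPZ1, the zeta subunit, was lower with miR-27a (-0.64 ± 0.19, adjusted p = 0.035) and at -0.20 with miR-23b. COPA, COPB1 and COPB2, the alpha, beta and beta-prime subunits, had 0.66, 0.16 and 0.17 with miR-23b and 0.01, 0.29 and 0.00 with miR-27a, and passed in neither, although COPA passed with the block for miR-23b (adjusted p = 0.0093). In all, 1 of 7 COPI genes was higher and 1 lower with miR-23b, 14.3% each beside 13.4% and 10.9% of all genes. With miR-27a 0 were higher and 3 (42.9%) lower, beside 18.5% and 16.1% of all genes.

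Of the 9 COPII genes 1 was higher and 0 lower with miR-23b (median 0.35), and 1 was higher and 1 lower with miR-27a (median 0.39). A single gene is 11.1% of the class, beside 13.4% higher and 10.9% lower of all genes with miR-23b and 18.5% and 16.1% with miR-27a. SEC23IP, a partner of the SEC23 coat proteins at exit sites, read 9.31, 9.47, 9.34 and 9.53 on the 4 inputs and 9.84, 10.02, 9.96 and 10.11 on the pull-downs of miR-23b and then miR-27a. All pull-down arrays lay above all inputs (0.54 ± 0.15 and 0.60 ± 0.15, adjusted p = 0.034 and 0.017). SEC22A, a relative of the SNARE SEC22B, was lower with miR-27a (-0.50 ± 0.15, adjusted p = 0.032). With the block, 4 COPII genes were higher and 1 lower with miR-23b, and 5 higher and 2 lower with miR-27a, where 24.5% and 20.2%, then 26.4% and 27.0% of all genes passed. Without single arrays, COPE kept its calls in both comparisons, and the remaining COPI and COPII calls each rose above the threshold without at least 1 array, reaching adjusted p of 0.098 to 0.21, those of SEC23IP with miR-23b and COPG1 with miR-27a also without an array of the other miRNA.

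**Figure D3:**
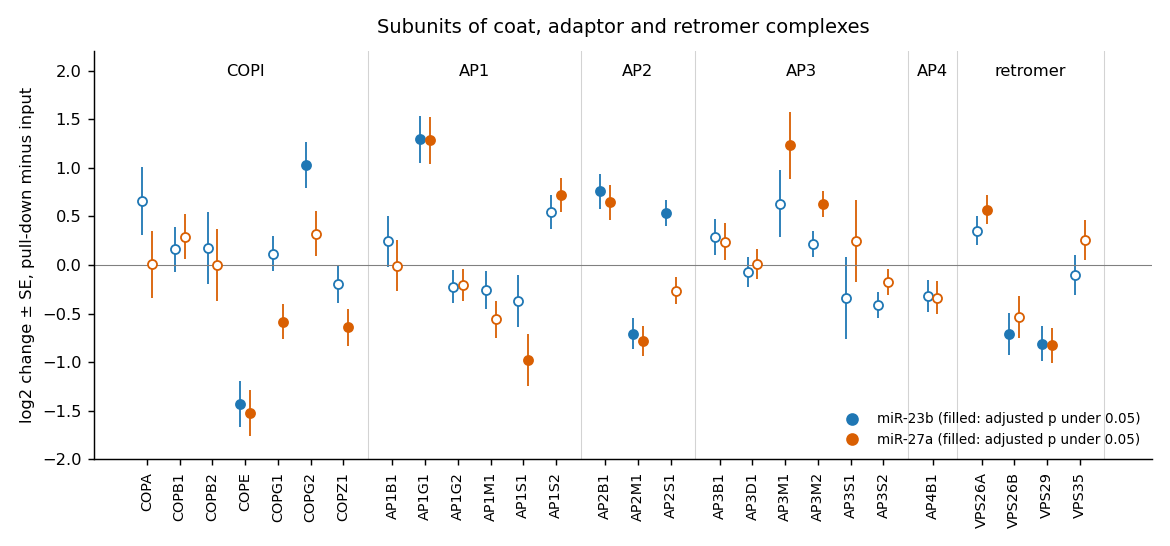
Log2 change, pull-down minus input, of the subunits of COPI, AP1 to AP4 and retromer among the 108 genes, which are on the horizontal axis. Bars are 1 SE, and circles are filled where the adjusted p was under 0.05. Within COPI, AP1, AP2 and retromer, subunits with filled circles lie both above and below 0, as with AP1G1 at 1.29 and 1.28 and AP2M1 at -0.71 and -0.78.

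Adaptor subunits likewise rose and fell within 1 complex. With miR-23b 3 of 16 were higher and 1 lower (median 0.08), and with miR-27a 5 were higher and 2 lower (median 0.00). These are 18.8% and 6.25%, then 31.2% and 12.5%, beside 13.4% and 10.9%, then 18.5% and 16.1% of all genes. The block gave 5 and 2 with miR-23b, and 5 and 4 with miR-27a. With it, 24.5% and 20.2%, then 26.4% and 27.0% of all genes passed.

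AP1G1, the gamma subunit of the AP1 complex of trans-Golgi and endosomes, read 9.12 and 9.30 on the miR-23b inputs, 10.15 and 10.85 on the miR-23b pull-downs, 9.19 and 9.38 on the miR-27a inputs and 10.39 and 10.75 on the miR-27a pull-downs. Its change was alike with both, 1.29 ± 0.24 (adjusted p = 0.0092) and 1.28 ± 0.24 (adjusted p = 0.0061), and its second probe passed with both (0.84 and 1.00). The sigma subunits of AP1 had opposite signs, with AP1S2 higher (0.72 ± 0.18, adjusted p = 0.016) and AP1S1 lower (-0.98 ± 0.27, adjusted p = 0.026) with miR-27a. With miR-23b AP1S2 had 0.55 (adjusted p = 0.057, with the block 0.0084) and AP1S1 -0.37 (adjusted p = 0.35). The second probe of AP1S2 passed as higher with both miRNAs (0.59 ± 0.13 and 0.70 ± 0.13, adjusted p = 0.017 and 0.0064). AP1B1, AP1G2 and AP1M1 passed in neither, with values from -0.26 to 0.24 with miR-23b and from -0.56 to -0.01 with miR-27a, although AP1M1 passed as lower with the block for miR-27a (-0.56, adjusted p = 0.056, with the block 0.0040).

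AP2, the adaptor of endocytosis at the plasma membrane, had 3 measured subunits. AP2M1, the mu subunit that reads tyrosine sorting signals, read 10.81 and 11.09 on the miR-23b inputs, 10.11 and 10.39 on the miR-23b pull-downs, 11.07 and 11.06 on the miR-27a inputs and 10.34 and 10.23 on the miR-27a pull-downs, so it was lower with both (-0.71 ± 0.16 and -0.78 ± 0.16, adjusted p = 0.017 and 0.0079). AP2B1, the beta subunit that binds clathrin, was higher with both (0.76 ± 0.18 and 0.65 ± 0.18, adjusted p = 0.020 and 0.026), and the second probes of AP2M1 and AP2B1 gave the same calls. AP2S1, the sigma subunit, read 14.02 and 13.98 on the miR-23b inputs, 14.54 and 14.54 on their pull-downs, 13.93 and 13.74 on the miR-27a inputs and 13.66 and 13.49 on their pull-downs. It was higher with miR-23b (0.54 ± 0.14, adjusted p = 0.026) and at -0.26 ± 0.14 with miR-27a (adjusted p = 0.17), where its second probe was lower (-0.67 ± 0.22, adjusted p = 0.045). With miR-23b the second probe did not pass (0.53 ± 0.22, adjusted p = 0.11).

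AP3, which sorts cargo to lysosomes and related organelles, rose in its mu subunits with miR-27a. AP3M1 read 8.97 and 9.89 on the miR-27a inputs and 10.69 and 10.63 on the miR-27a pull-downs (1.23 ± 0.34, adjusted p = 0.027), and AP3M2 read 9.81 and 9.62, then 10.28 and 10.41 (0.63 ± 0.13, adjusted p = 0.0094). With miR-23b their values were 0.63 and 0.22 and did not pass, although AP3M1 passed with the block (adjusted p = 0.039). The other AP3 subunits AP3B1, AP3D1, AP3S1 and AP3S2 lay between -0.41 and 0.29 with miR-23b and between -0.17 and 0.25 with miR-27a, and AP4B1 had -0.32 and -0.33. With the block AP3S2 passed as lower with miR-23b (adjusted p = 0.058, with the block 0.018) and AP4B1 as lower with miR-27a (adjusted p = 0.15, with the block 0.042). AP4E1, another AP4 subunit, fell outside the symbols and was higher with miR-27a (0.80 ± 0.16, adjusted p = 0.0071). With miR-23b it had 0.48 ± 0.16 (adjusted p = 0.058, with the block 0.011). Without single arrays, AP1G1 kept both calls, and the other 3 and 6 adaptor calls reached adjusted p of 0.10 to 0.12 and of 0.054 to 0.15.

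The 3 non-coding genes did not pass with either miRNA. VPS9D1-AS1, an antisense RNA, had 0.78 ± 0.27 with miR-23b (adjusted p = 0.069, with the block 0.00074) and 0.20 with miR-27a. STX18-AS1 and the pseudogene SNX29P2 lay between -0.08 and 0.23 in both comparisons.

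The test of the difference between the pull-downs, each taken against its own input, singled out 2 SNAREs. VAMP2 changed more with miR-23b than with miR-27a, by 1.41 (95% interval 0.98 to 1.84, adjusted p = 0.028), as did STX5, by 1.36 (0.91 to 1.82, adjusted p = 0.035). In the opposite direction 0 of the 108 passed in limma. In either direction 15 of the 108 had an unadjusted p under 0.05, beside 968 of all 9535 genes. At the adjusted threshold 0.262% of all genes changed more with miR-23b and 0.283% more with miR-27a. Both calls were lost on leaving out any of the 8 arrays, with adjusted p of 0.095 to 0.15 for VAMP2 and 0.11 to 0.16 for STX5, while the differences stayed between 1.31 and 1.51 and between 1.26 and 1.47.

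With the block, 8 of the 108 changed more with miR-23b and 3 changed more with miR-27a, where 3.2% and 1.48% of all genes passed. Besides STX5 and VAMP2, the 8 comprised SNAP29 (difference 1.25, adjusted p = 0.12, with the block 0.0029), STX8 (1.41, 0.12 and 0.0025), STX10 (0.87, 0.30 and 0.016), VPS16 of the HOPS and CORVET core (1.10, 0.56 and 0.016), VPS35L of retriever (0.76, 0.26 and 0.041) and AP2S1 (0.80, 0.18 and 0.026). The 3 were VAMP3 (-0.77, 0.22 and 0.024), VAMP8 (-1.12, 0.12 and 0.016) and SNX11 (-0.82, 0.30 and 0.031). Of these 11 genes, 7 were SNAREs, from a class of 23 of the 108 genes that includes SNAP91 and leaves out SEC22B. That count rests on the block, as VAMP2 and STX5 alone passed without it. The difference for SNX4 was -0.72 (adjusted p = 0.52) and that for VPS28 was -0.79 (adjusted p = 0.35), so these were not shown to differ between the miRNAs. For COPE it was 0.09 (95% interval -0.68 to 0.87) and for AP1G1 0.01 (-0.78 to 0.79).

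**Figure D4:**
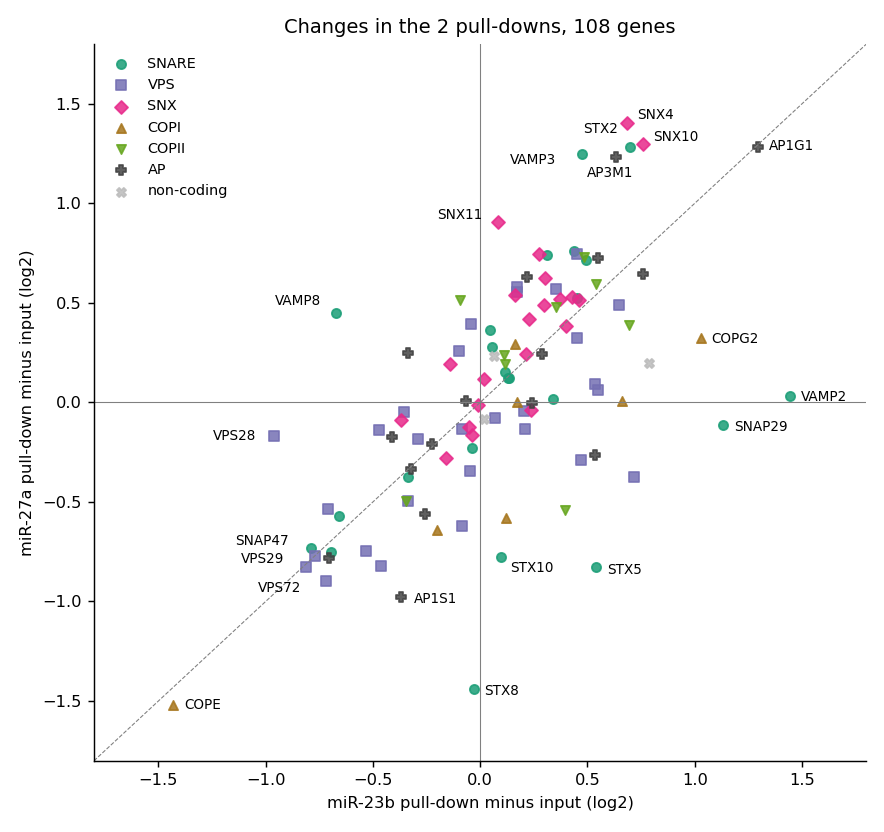
Log2 change in the miR-23b pull-down on the horizontal axis against that in the miR-27a pull-down on the vertical axis, 1 symbol a gene, shaped and coloured by class, with a dashed line where both are equal. VAMP2 at 1.44 and 0.03 and STX5 at 0.54 and -0.82 lie far below the line, VAMP8 at -0.67 and 0.45 lies above it, and COPE and AP1G1 lie close to it at opposite ends.

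Other genes of these pathways that the symbols do not reach were written down as 5 lists of 118 genes, of which 96 were measured. With miR-23b 7 were higher and 12 lower (median 0.08), 7.29% and 12.5% beside 13.4% and 10.9% of all genes. With miR-27a 15 were higher and 22 lower (median 0.08), 15.6% and 22.9% beside 18.5% and 16.1% of all genes. Of 17 measured genes of SNARE machinery 2 were higher and 4 lower with miR-23b and 1 and 5 with miR-27a, among the latter NAPA, the alpha-SNAP that helps take SNARE complexes apart (-0.48 and -0.55). Of 14 further COPI and COPII genes 0 were higher and 3 lower with each miRNA. Of 15 clathrin and adaptor genes 1 was higher and 0 lower with miR-23b and 2 and 2 with miR-27a. Of 18 further ESCRT genes 2 were higher and 2 lower with miR-23b and 5 and 6 with miR-27a, and of 32 tethers 2 and 3, then 7 and 6. These counts describe the lists and were not tested against other genes.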

How the data were processed

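HEK293T cells transfected with biotinylated miR-23b or miR-27a were profiled as pull-down and input, 2 arrays a group and 8 in all. The deposited values are log2 values made by the authors with lumi 2.2.1, per the submitters' processing notes. How values were transformed and normalized and how probes were filtered is not given in the sources used here. No detection filter could be applied, and precision is limited by the number of arrays. The 16 columns of a non-normalized table were not used, because their names match no sample.

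Probes were named from the platform annotation (12008 with 1 gene, 2471 without), and a gene was its probe with the highest mean. Each pull-down was compared with its input, and the changes with each other, by limma 3.58.1 in R 4.3.3, with a mean for each of 4 groups over all 8 arrays (4 residual degrees of freedom) and two-sided tests adjusted by Benjamini-Hochberg over all 14479 probes. Errors are moderated standard errors. The fit was tested on simulated data.

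Members, classes and lists were chosen with earlier results of these data known. Named were up to 4 genes a class, direction and comparison with the largest passing change, and those passing the difference. Also named were all subunits of retromer, COPI and AP1 to AP4 among the 108 genes. Other genes are named as partners of these, where only the block called them, or to complete a count, after their values were seen. Same-numbered arrays deviated together (r of 0.34 to 0.80 over 6 of 6 pairs of groups), so the numbers were taken to pair arrays, from the data and not the labels. Alternatives were this block, quantile and median scaling, a filter on dim probes, the mean of a gene's probes, a variance trend, only the arrays of 1 miRNA, and each array left out. Protein lengths and seed matches in 3′ ends, planned as descriptions, were not analysed here.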

Additional observations from a re-analysis of the deposited data

Results flagged for a closer look

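The change of VAMP2 and that of STX5 differed between the pull-downs by limma's test of the difference itself, by 1.41 (adjusted p = 0.028) and 1.36 (adjusted p = 0.035) on the log2 scale, higher with miR-23b. VAMP2 was above its input on both miR-23b pull-down arrays and STX5 was above its input with miR-23b and below it with miR-27a on both arrays of each. The other 2 probes of STX5 gave differences of 0.51 (adjusted p = 0.49) and 1.09 (adjusted p = 0.21), and VAMP2 had 1 probe. The cause was not tested.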

How the results depend on the processing

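With the replicate block, calls rose from 21 to 49 with miR-23b (11 to 31 higher, 10 to 18 lower), from 37 to 59 with miR-27a (21 to 34 higher, 16 to 25 lower) and from 2 to 11 for the difference. With the miR-23b arrays alone, 12 genes passed with miR-23b, 5 of them higher. Leaving out 1 array gave 7 to 19 calls with miR-23b (3 to 9 higher, 4 to 10 lower), 13 to 41 with miR-27a (6 to 23 higher, 7 to 18 lower) and 0 for the difference. Without miR-23b input replicate 2, 7 of the 21 genes were still called, and without miR-27a pull-down replicate 2, 13 of the 37. In both of these fits fewer of all genes were called as well. The difference had 1 call with the mean of a gene's probes and 1 with a variance trend, since STX5 then had adjusted p of 0.12 and 0.059.

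The median change of the 108 genes with miR-23b, 0.13, was 0.15 after quantile normalization, 0.17 without the dimmest 25% of probes and 0.11 with the mean of probes, and 0.11 to 0.14 without single arrays. That with miR-27a, 0.08, was 0.0071 to 0.13 without single arrays. SNX5 with miR-27a turned from 0.54 to -0.036 with the mean of its probes, which have opposite signs. No other called gene turned its sign under any alternative run. Median and quantile scaling altered 3 and 4 of 171 single-gene calls. Background correction of the non-normalized signals was not run, because their columns could not be matched to samples. The cause of the other shifts was not tested.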
